A study of Danio rerio with 9 samples.

Results

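The genes described here are the nuclear-encoded subunits of the mitochondrial respiratory chain and of ATP synthase, as they are named in the table: 94 of its 33737 genes. They were chosen by name alone, with the prefixes nduf, sdh, uqcr, cyc1, cox and atp5, and comprise 39 genes for complex I, 6 for complex II, 9 for complex III, 19 for complex IV and 21 for complex V. RNA was sequenced from whole zebrafish embryos of the TuAB strain at 72 hours post fertilization (hpf), as 3 libraries per group and from pools of 30 embryos. MZcep290-/- mutants were maternal zygotic mutants, without wild-type Cep290 from mother or embryo, and carried a 10-bp deletion in exon 16. cep290ex25 morphants had received a morpholino against the splice donor of exon 25, which knocks the gene down for a limited time. The reference embryos were wild-type TuAB. The study calls them siblings, but a homozygous mutant mother has no wild-type offspring. The reference embryos thus cannot share a mother with the maternal zygotic mutants. Whether the reference embryos were injected is not given for these libraries in the sources used here. The effects of injection, of clutch and of background therefore cannot be told apart from those of cep290 loss. The study used these groups to compare acute with lifelong loss of Cep290, a protein of the ciliary transition zone.

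Complexes I and II pass electrons from NADH and succinate to ubiquinone, complex III passes them on to cytochrome c, and complex IV hands them to oxygen. Complexes I, III and IV pump protons across the inner mitochondrial membrane, and complex V, the ATP synthase, uses the proton gradient to make ATP. All but complex II are built from subunits of both genomes, and muscle, heart and photoreceptors are known as tissues rich in them.

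Reads on genes numbered 18662115 to 21299112 in the mutant libraries, 9050375 to 16150393 in the morphant libraries and 5652757 to 7674248 in the wild-type libraries. Values are RPKM, reads per kilobase of gene scaled to a normalized library size. That size was 1.31 to 1.32 times the read total in the mutants, 0.894 to 1.07 times in the morphants and 0.737 to 0.859 times in wild type. The 50 most abundant genes took 21.3 to 21.95% of the reads in the mutants, 27.8 to 34.0% in the morphants and 40.8 to 41.9% in wild type. cep290 itself measured 1.14 to 1.32 RPKM in the mutants, 3.36 to 6.15 RPKM in the morphants and 1.62 to 2.60 RPKM in wild type, and was called higher in the morphants. Neither a 10-bp deletion nor missplicing need change a whole-gene value, so these levels check the labels only weakly. The third wild-type library is titled replicate 3 but its description reads WT2.1. Its reads differed from those of replicate 2 by a mean chi-square of 8.60 per gene, where sampling noise gives 1 and other pairs within a group gave 3.55 to 22.2, so it was counted as a replicate; whether both came from the same embryos is not given. The replicates are pools, and p-values measure the spread between these samples. Over the 75 subunit genes of 8 RPKM or more on average, the median coefficient of variation was 3.70% between the mutant libraries, 11.97% between the morphant libraries and 16.4% between the wild-type libraries. Wild-type replicate 1 was the lowest of its group for 66 of the 75 genes and wild-type replicate 3 the highest for 61, and morphant replicate 2 was the lowest of its group for 50. In RNA from whole embryos, fewer cells of a type and less RNA per cell cannot be told apart.

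Transcripts of the respiratory chain were lower in MZcep290-/- mutants, unevenly from subunit to subunit. Of the 92 subunit genes that passed a filter of at least 0.5 RPKM in at least 3 libraries, 36 were called lower in the mutants and 1, ndufs6, was called higher, with a call set at a Benjamini-Hochberg adjusted p under 0.05 in limma and a change of over 2-fold. Over all 21982 genes tested, 12.1% were called lower and 10.4% higher, against 39.1% and 1.09% of the subunit genes. The median log2 fold change was -0.81 over the subunit genes and -0.02 over all genes, and 76 of the 92 subunit genes lay below 0. Without wild-type replicate 2 there were 33 lower genes, and without wild-type replicate 3 there were 30. Without the 2-fold minimum, 55 subunit genes were lower and 6 higher, against 18.2% lower and 17.8% higher of all genes. In cep290ex25 morphants 5 subunit genes were called lower and 1 higher, which is 5.43% and 1.09%, against 14.9% and 7.45% of all genes. Their median log2 fold change was -0.36, against -0.05 over all genes. Both comparisons share the 3 wild-type libraries. The lower genes of both include sdhda and ATP5J (3 of 4), which passed the filter only through wild type.

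**Figure D1:**
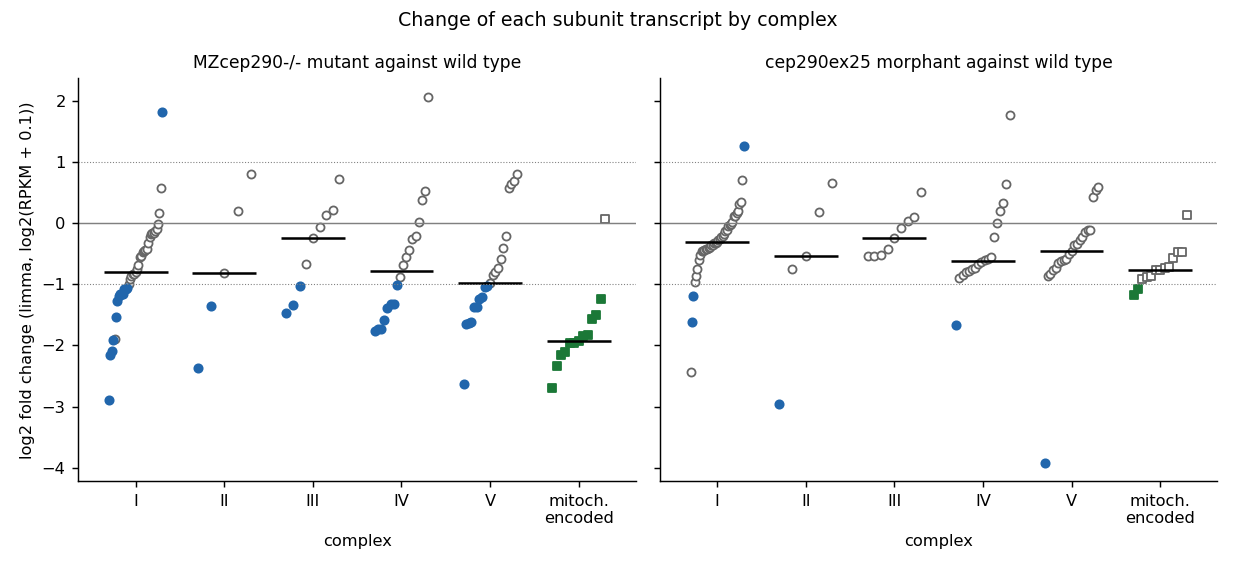
Log2 fold change of each subunit gene (points) by complex, for the mutants (left) and the morphants (right) against wild type, with the 13 mitochondrially encoded subunits as squares. Filled symbols are called, horizontal bars are medians and dotted lines mark 2-fold; in the mutants the complex medians lie between -0.24 and -0.98, with scaling by library read totals raising the median over the subunit genes to -0.08.

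Lower genes were found in all 5 complexes. In the mutants 13 of 39 complex I genes, 2 of 5 complex II genes, 3 of 9 complex III genes, 8 of 18 complex IV genes and 10 of 21 complex V genes were called lower. The median log2 fold changes were -0.80, -0.82, -0.24, -0.78 and -0.98 in that order of complexes. In the morphants the same medians were -0.31, -0.53, -0.25, -0.61 and -0.46. The 5 lower calls there fell to complex I with 2 and to complexes II, IV and V with 1 each. The morphant calls of complexes II and V were those of sdhda and of an ATP5J gene. Both passed the filter only through wild type, so a lower call was favoured from the start. They also count among the lower genes of complexes II and V in the mutants. Of all genes 12.1% were called lower in the mutants and 14.9% in the morphants. The 2 genes under the filter were a second sdhb copy, SDHB (2 of 2), with 1 read in 1 wild-type library, and a second cox5aa row (ENSDARG00000088383) with 6 reads in 1 wild-type library.

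Shares of reads do not depend on how the libraries were scaled, though each share depends on what all other genes take. The 94 genes together took 1.17, 1.18 and 1.19% of the reads on genes in the mutant libraries, 1.30, 1.26 and 1.31% in the morphant libraries and 1.42, 1.49 and 1.61% in the wild-type libraries. The groups did not overlap. An exact two-sided permutation test of 3 against 3 libraries cannot give a p below 0.10. Complex V took 0.580, 0.594 and 0.595% of the reads in the mutants, against 0.784, 0.816 and 0.880% in wild type. Complex IV took 0.173, 0.172 and 0.177% in the mutants, against 0.227, 0.244 and 0.264% in wild type. Complexes IV and V were lower in every mutant library. Complex I took 0.272 to 0.273% in the mutants, against 0.275 to 0.315% in wild type. In share of reads complex III went the other way, with 0.112, 0.109 and 0.110% in the mutants, against 0.0910, 0.101 and 0.109% in wild type. The lowest mutant share was 0.1093% and the highest wild-type share 0.1091%. A share divides by the read total, and on that scale the median log2 fold change of all genes in the mutants was 0.68. In summed RPKM complex III was lower in the mutants, at 0.664 of wild type. The shares of complex II overlapped between these groups.

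**Figure D2:**
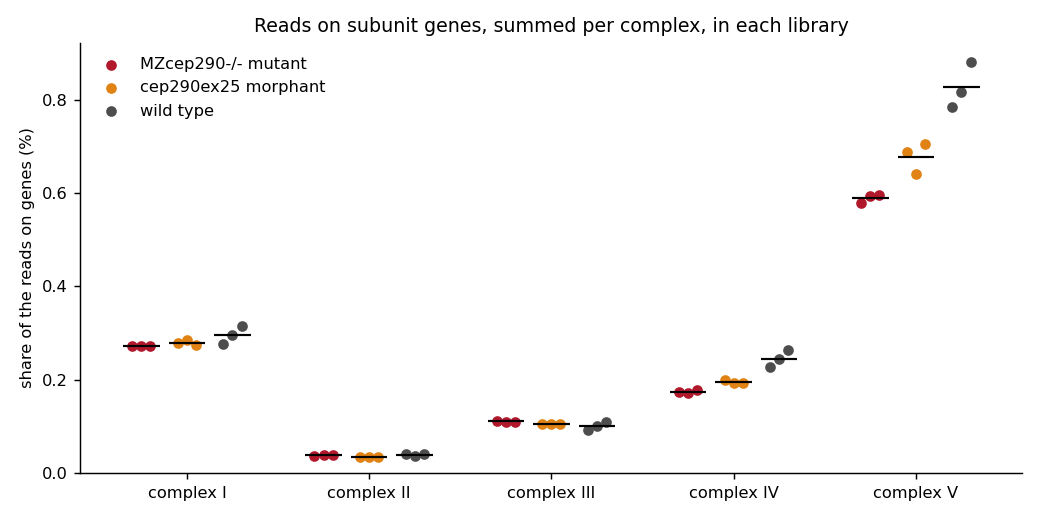
Reads on the subunit genes of each complex as a percentage of all reads on genes (vertical axis), in each of the 3 mutant, 3 morphant and 3 wild-type libraries (points), with group means as bars. Complexes IV and V are lowest in the mutants and highest in wild type, and complex III lies between 0.109 and 0.112% in the mutants and between 0.0910 and 0.109% in wild type.

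Most of the very abundant genes were lower in the mutants, and many subunit genes are abundant. The other genes set beside them here include the mitochondrially encoded subunits and were not split by kind. Among genes with a mean of 512 RPKM or more, 5 of 5 subunit genes and 120 of 160 other genes (75.0%) were called lower, with median log2 fold changes of -1.32 and -1.50. Between 128 and 512 RPKM, 13 of 23 subunit genes (56.5%) and 91 of 261 other genes (34.9%) were called lower, with medians of -1.03 and -0.69. Between 32 and 128 RPKM the counts were 9 of 38 (23.7%) and 134 of 1019 (13.2%), with medians of -0.45 and -0.10. Between 8 and 32 RPKM they were 4 of 9 and 229 of 4338, with medians of -0.85 and 0.21. Among the most abundant genes the subunits thus changed no more than other genes of their level, while their medians lay below those of other genes in the 3 bins from 8 to 512 RPKM. Across the 92 subunit genes, Spearman's rho between mean level and change in the mutants was -0.36, and between gene length and change 0.06, both as descriptions across genes, which share their libraries and are not replicates.

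**Figure D3:**
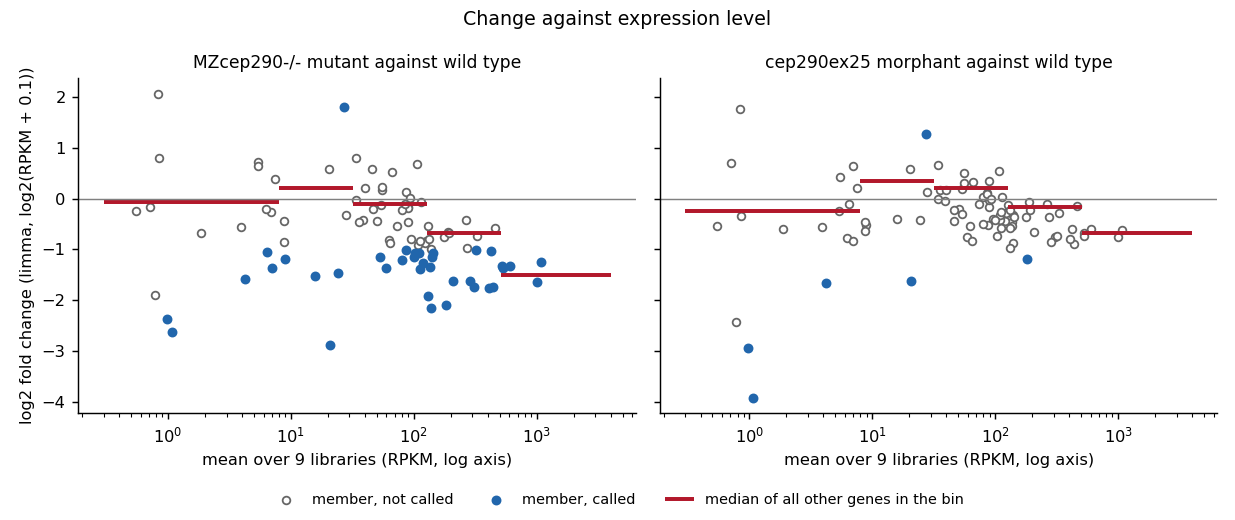
Log2 fold change of each subunit gene (points, filled where called) against its mean level over the 9 libraries (log axis), in the mutants (left) and the morphants (right), each against wild type. Red lines give the median of all other genes tested in each range of levels; in the mutants it falls to -1.50 at 512 RPKM or more, where the subunit median is -1.32.

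The scaling set the size of the counts. Under library read totals, without the normalization factors behind the RPKM values, the median over all genes in the mutants was 0.68 and that over the subunit genes -0.08, so that the subunits lay 0.76 below all genes, against 0.79 as deposited, and 7 were called lower and 8 higher, beside 1188 lower and 6593 higher of all genes. The 8 higher ones were ndufs6, sdhc, ndufa4, cox7a2a, cox4i2, atp5ib, atp5ia and the rarer uqcrfs1 row. A cyclic loess normalization, which removes a shift that follows level, gave 16 lower and 3 higher with medians of -0.41 over the subunits and 0.08 over all genes, of which 1382 were lower and 2037 higher. No called gene changed direction under either, but many calls were lost. Of the 36 lower genes 7 were still called lower under library read totals and 15 under cyclic loess. A kept direction can be a very small change, as for ATP5B with -0.02 at its smallest. Of the 55 genes that were lower by adjusted p alone, 7 lay above wild type under library read totals (atp5g3b, cox5ab, ndufa10, ndufa5, ndufa7, ndufb9 and uqcrq) and 2 under cyclic loess (atp5c1 and atp5g3b). Under all 19 alternatives 6 calls in the mutants remained: the rise of ndufs6 and the falls of ndufa6, NDUFB1, ndufb3, cox6a1 and NDUFA4L2 (1 of 2).

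**Figure D4:**
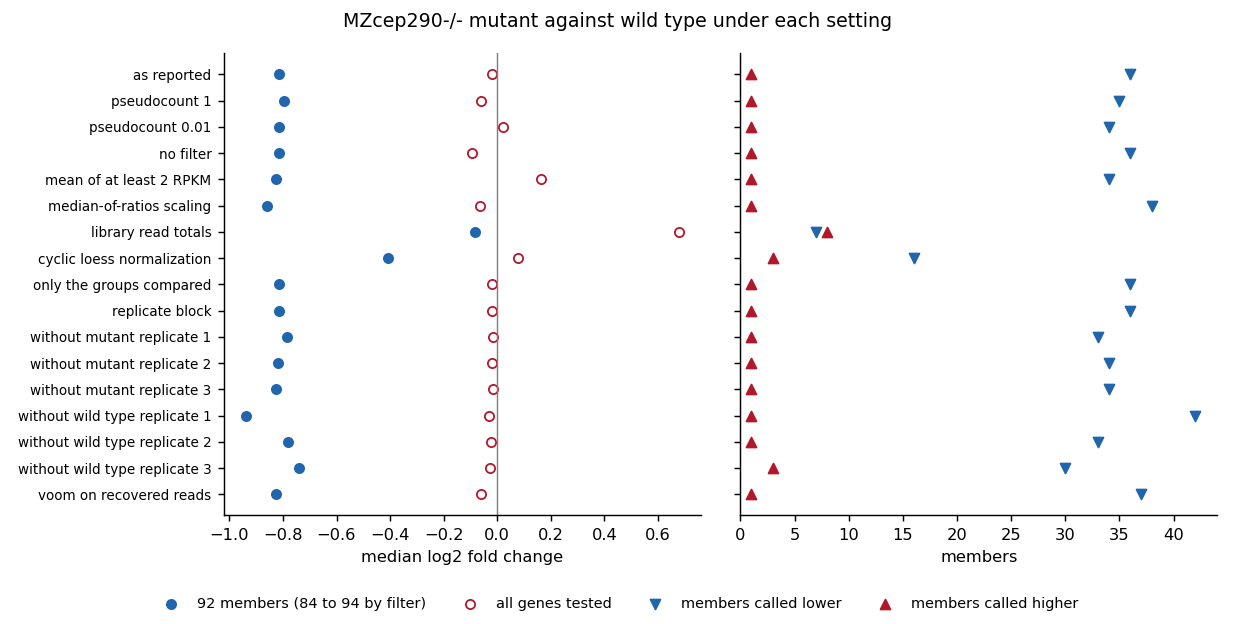
The comparison of mutants with wild type under each setting (rows): median log2 fold change of the subunit genes and of all genes tested (left), and number of subunit genes called lower and higher (right). The subunit median is below that of all genes in every row; 36 genes are lower as reported, 16 under cyclic loess normalization and 7 under library read totals, where 8 are higher.

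Complex I, as counted by name, held the only called rise in the mutants and, among subunit genes of 8 RPKM or more on average, the 4 largest falls. The largest of these was that of NDUFA4L2 (1 of 2), whose family is now placed at complex IV. ndufa6, an accessory subunit of the matrix arm, measured 49.5, 54.1 and 53.2 RPKM in the MZcep290-/- mutants, 135, 111 and 140.0 RPKM in the morphants and 196, 259.7 and 252 RPKM in wild type. All mutant values lay below all morphant values, and these below all wild-type values (log2 fold change -2.16 ± 0.13 (SE), limma adjusted p = 1.3e-05 for the mutants, and -0.87 ± 0.13 with adjusted p = 0.0012 for the morphants, which is under 2-fold). NDUFB1, a small subunit of the membrane arm, measured 80.2, 74.7 and 72.5 RPKM in the MZcep290-/- mutants, 163, 133 and 131 RPKM in the morphants and 274, 376 and 329.7 RPKM in wild type. It was called lower in the mutants (log2 fold change -2.09 ± 0.13 (SE), limma adjusted p = 1.4e-05) and in the morphants (log2 fold change -1.19 ± 0.13 (SE), limma adjusted p = 0.00031). It fell in both, to the lowest level in the mutants. ndufb3, another membrane arm subunit, measured 58.8, 58.7 and 57.2 RPKM in the mutants, against 175, 226 and 266 RPKM in wild type. For ndufb3 all mutant libraries lay below all wild-type ones (log2 fold change -1.91 ± 0.18 (SE), limma adjusted p = 7.6e-05). Its morphant values of 131, 88.2 and 121 RPKM lay between these groups, at under 2-fold from wild type (-0.97 ± 0.18 on the log2 scale).

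ndufs6, an accessory subunit that binds zinc at the matrix arm, was the one subunit gene called higher, at over 2-fold, in both groups. It measured 44.4, 38.4 and 40.0 RPKM in the MZcep290-/- mutants, 24.7, 37.2 and 23.8 RPKM in the morphants and 7.33, 14.4 and 14.8 RPKM in wild type. Neither the mutants nor the morphants overlapped wild type (log2 fold change 1.81 ± 0.27 (SE), limma adjusted p = 0.00094 in the mutants and log2 fold change 1.26 ± 0.27 (SE), limma adjusted p = 0.0064 in the morphants). Without wild-type replicate 1, the lowest library, the change in the morphants was 0.94 and under 2-fold. The ratio of ndufs6 to ndufs1, the iron-sulfur subunit that heads the matrix arm, was 0.571, 0.498 and 0.543 in the mutants, 0.226, 0.369 and 0.214 in the morphants and 0.0549, 0.106 and 0.0897 in wild type.

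Core subunits bind the flavin and the iron-sulfur clusters of complex I or its ubiquinone site. Of the 8 core genes, with a median of -0.996, 3 were called lower in the mutants and none in the morphants. ndufv1, the flavin subunit that accepts electrons from NADH, measured 72.9, 72.6 and 66.7 RPKM in the MZcep290-/- mutants, 95.2, 84.4 and 86.7 RPKM in the morphants and 133, 151 and 164 RPKM in wild type. For ndufv1 all mutant libraries lay below all wild-type ones (log2 fold change -1.07 ± 0.10 (SE), limma adjusted p = 6.4e-05). ndufs1 measured 77.6, 77.0 and 73.7 RPKM in the MZcep290-/- mutants, 109, 101 and 111 RPKM in the morphants and 134, 135 and 165 RPKM in wild type. For ndufs1 all mutant libraries lay below all wild-type ones, at under 2-fold (log2 fold change -0.92 ± 0.09 (SE), limma adjusted p = 0.00014). ndufv2 and ndufs7 were also called, the second only with wild-type replicate 3 included (-0.92 without it). ndufs3 gave -0.10 ± 0.17 and its libraries overlapped, and ndufs8b was near the detection limit with 0 to 20 reads.

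Among the other accessory genes ndufa9, ndufa12, ndufa13, ndufb5, ndufs5 and an ndufv3 row (ENSDARG00000090389) were called lower in the mutants, with log2 fold changes from -1.53 for ndufv3 to -1.07 for ndufs5. The fall of ndufa13 was just under 2-fold without wild-type replicate 3. Below the threshold, ndufb10, a membrane arm subunit, measured 91.2, 94.2 and 91.3 RPKM in the mutants, against 152, 201 and 205 RPKM in wild type (log2 fold change -0.998 ± 0.12 (SE), limma adjusted p = 0.00027). All complex I genes with no call in the mutants but ndufa4 and ndufs4 had values below 0. Among the accessory genes of 8 RPKM or more on average NDUFA3, NDUFB2, ndufa2, ndufa11, ndufb7 and ndufs4 overlapped wild type, with log2 fold changes from -0.55 to 0.17. A further ndufv3 row had the lowest mean of complex I, with 0.352 to 0.628 RPKM in the mutants, 0.406 to 1.56 RPKM in the morphants and 0.449 to 0.775 RPKM in wild type.

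The ndufa4 family split. Its proteins were long counted with complex I and are now placed at complex IV, and NDUFA4L2 is known in mammals as a hypoxia-inducible relative. In the counts given here the family stays with complex I, by name. NDUFA4L2 (1 of 2) measured 5.04, 5.78 and 5.66 RPKM in the MZcep290-/- mutants, 15.2, 6.56 and 23.4 RPKM in the morphants and 47.3, 42.2 and 34.9 RPKM in wild type. Its fall in the mutants was the largest of all subunit genes tested (log2 fold change -2.89 ± 0.37 (SE), limma adjusted p = 0.00045), and it was also called in the morphants (log2 fold change -1.62 ± 0.37 (SE), limma adjusted p = 0.0093). These values rest on 28 to 57 reads per library in a gene of 248 bases. ndufa4 measured 61.0, 65.4 and 64.5 RPKM in the MZcep290-/- mutants, 33.6, 31.7 and 28.9 RPKM in the morphants and 41.6, 35.9 and 51.4 RPKM in wild type. It was above wild type in the mutants by under 2-fold (log2 fold change 0.58 ± 0.13 (SE), limma adjusted p = 0.0072) and below wild type in the morphants (log2 fold change -0.44 ± 0.13 (SE), limma adjusted p = 0.026), with no overlap between any of the groups. The second relative, ndufa4l2, had 0.85 to 1.73 RPKM in the mutants, 1.00 to 1.75 RPKM in the morphants and 0.355 to 4.88 RPKM in wild type, which overlapped.

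In complex II, which is also succinate dehydrogenase of the citric acid cycle, the catalytic subunits were lower by adjusted p while a membrane anchor was higher. sdha, the flavoprotein that oxidizes succinate, measured 34.4, 35.0 and 34.8 RPKM in the MZcep290-/- mutants, 57.3, 45.1 and 57.7 RPKM in the morphants and 85.8, 83.9 and 99.4 RPKM in wild type. For sdha all mutant libraries lay below all wild-type ones (log2 fold change -1.36 ± 0.11 (SE), limma adjusted p = 4.7e-05). sdhb, its iron-sulfur partner and the gene of the complex with the highest mean over all libraries, measured 44.8, 46.0 and 49.8 RPKM in the MZcep290-/- mutants, 52.6, 53.6 and 66.6 RPKM in the morphants and 82.8, 82.5 and 83.5 RPKM in wild type. For sdhb all mutant libraries lay below all wild-type ones, at under 2-fold (log2 fold change -0.82 ± 0.10 (SE), limma adjusted p = 0.00032). sdhc, which anchors them in the membrane, measured 38.5, 40.5 and 44.7 RPKM in the MZcep290-/- mutants, 38.8, 38.0 and 34.3 RPKM in the morphants and 17.8, 24.1 and 30.1 RPKM in wild type. Every library of the mutants and morphants lay above wild type, at under 2-fold (log2 fold change 0.81 ± 0.17 (SE), limma adjusted p = 0.0056 and log2 fold change 0.65 ± 0.17 (SE), limma adjusted p = 0.015). The ratio of sdhc to sdha was 1.12, 1.16 and 1.29 in the mutants, 0.677, 0.842 and 0.595 in the morphants and 0.208, 0.287 and 0.303 in wild type, so that sdhc was the more abundant of the 2 only in the mutants.

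The other anchor has 2 genes. sdhdb carried nearly all of its reads and measured 41.6, 41.7 and 42.7 RPKM in the MZcep290-/- mutants, 38.8, 41.2 and 43.8 RPKM in the morphants and 33.6, 34.2 and 42.5 RPKM in wild type. For sdhdb the mutant and wild-type libraries overlapped (log2 fold change 0.20 ± 0.10 (SE), limma adjusted p = 0.16). sdhda was called lower in both groups (-2.37 ± 0.71, adjusted p = 0.027 in limma for the mutants and -2.95 ± 0.71, adjusted p = 0.011 for the morphants), from 10, 11 and 10 reads in the mutants, 0, 5 and 6 reads in the morphants and 17, 14 and 9 reads in wild type. The call in the mutants was lost without any one of mutant replicates 1, 2 and 3 and wild-type replicates 1 and 2, with adjusted p from 0.061 to 0.082. sdhda passed the filter only through wild type, at 1.38 to 3.04 RPKM, so a lower call was favoured from the start.

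In complex III the change differed between partners of one structure. cyc1, the heme subunit that delivers electrons to cytochrome c, measured 78.1, 75.2 and 77.4 RPKM in the MZcep290-/- mutants, 139.9, 109 and 155 RPKM in the morphants and 158, 205 and 227 RPKM in wild type. For cyc1 all mutant libraries lay below all wild-type ones (log2 fold change -1.34 ± 0.16 (SE), limma adjusted p = 0.00026). uqcrc1 and uqcrc2 form the pair of core proteins on the matrix side. uqcrc1 measured 108, 111 and 107 RPKM in the MZcep290-/- mutants, 119.9, 111 and 120.0 RPKM in the morphants and 98.5, 113 and 133 RPKM in wild type. For uqcrc1 the mutant and wild-type libraries overlapped (log2 fold change -0.07 ± 0.11 (SE), limma adjusted p = 0.67). uqcrc2a measured 59.1, 55.2 and 60.9 RPKM in the MZcep290-/- mutants, 93.8, 68.3 and 88.3 RPKM in the morphants and 102, 117 and 141 RPKM in wild type. For uqcrc2a all mutant libraries lay below all wild-type ones (log2 fold change -1.02 ± 0.15 (SE), limma adjusted p = 0.00075). Its fall was under 2-fold without mutant replicate 2 (-0.98) or wild-type replicate 3 (-0.90). Its paralogue uqcrc2b measured 92.1, 89.6 and 87.1 RPKM in the MZcep290-/- mutants, 85.8, 91.5 and 84.6 RPKM in the morphants and 70.8, 80.9 and 95.0 RPKM in wild type. For uqcrc2b the mutant and wild-type libraries overlapped (log2 fold change 0.13 ± 0.11 (SE), limma adjusted p = 0.36). The ratio of uqcrc2a to uqcrc2b was 0.642, 0.617 and 0.700 in the mutants, 1.09, 0.746 and 1.04 in the morphants and 1.43, 1.45 and 1.48 in wild type, with no overlap between groups.

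The Rieske iron-sulfur protein had 2 rows under the name uqcrfs1. The more abundant (ENSDARG00000077402) measured 12.4, 12.6 and 11.6 RPKM in the MZcep290-/- mutants, 22.0, 20.1 and 36.5 RPKM in the morphants and 27.7, 34.7 and 40.9 RPKM in wild type. For this uqcrfs1 row all mutant libraries lay below all wild-type ones (log2 fold change -1.47 ± 0.22 (SE), limma adjusted p = 0.001). The other (ENSDARG00000007745) measured 6.91, 8.09 and 7.41 RPKM in the MZcep290-/- mutants, 4.30, 3.55 and 3.43 RPKM in the morphants and 2.60, 4.66 and 7.36 RPKM in wild type, with a log2 fold change of 0.72 ± 0.32 and overlapping libraries (limma adjusted p = 0.11). The ratio of the first to the second was 1.79, 1.56 and 1.56 in the mutants, 5.11, 5.65 and 10.7 in the morphants and 10.7, 7.45 and 5.56 in wild type. Of the small subunits, uqcrq was the most abundant gene of the complex, with 137, 137 and 140.3 RPKM in the mutants, against 172, 249 and 245 RPKM in wild type. For uqcrq all mutant libraries lay below all wild-type ones, at under 2-fold (log2 fold change -0.67 ± 0.15 (SE), limma adjusted p = 0.0079). This direction turned round under library read totals. uqcrh, the hinge protein next to cyc1, measured 57.1, 51.8 and 52.4 RPKM in the MZcep290-/- mutants, 67.2, 67.7 and 61.2 RPKM in the morphants and 38.2, 51.4 and 49.7 RPKM in wild type. Its morphant libraries lay above wild type at under 2-fold (log2 fold change 0.50 ± 0.12 (SE), limma adjusted p = 0.01). uqcrb was the least abundant, with 0 to 8 reads per library.

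Complex IV, cytochrome c oxidase, held 8 lower genes among 18. Its nuclear subunits surround a core that mitochondria encode. cox8a, a small subunit that spans the membrane, measured 193, 190.4 and 186 RPKM in the MZcep290-/- mutants, 394, 297 and 434 RPKM in the morphants and 613, 572 and 774 RPKM in wild type. For cox8a all mutant libraries lay below all wild-type ones (log2 fold change -1.77 ± 0.15 (SE), limma adjusted p = 6.0e-05). cox6c, another such subunit, measured 213, 215 and 212 RPKM in the MZcep290-/- mutants, 404, 321 and 425 RPKM in the morphants and 598, 739 and 814 RPKM in wild type. For cox6c all mutant libraries lay below all wild-type ones (log2 fold change -1.73 ± 0.14 (SE), limma adjusted p = 3.9e-05). cox6a1, the non-muscle isoform of its subunit in mammals, measured 144, 145 and 150.3 RPKM in the MZcep290-/- mutants, 312, 257 and 296 RPKM in the morphants and 415, 522 and 532 RPKM in wild type. For cox6a1 all mutant libraries lay below all wild-type ones (log2 fold change -1.73 ± 0.12 (SE), limma adjusted p = 1.9e-05). In these 3 genes the mutants lay below the morphants and the morphants below wild type in every library, and the morphant falls were under 2-fold.

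cox4i1, a subunit known to bind ATP, measured 309.5, 305 and 317 RPKM in the MZcep290-/- mutants, 532, 419.8 and 514 RPKM in the morphants and 678, 772 and 889 RPKM in wild type. For cox4i1 all mutant libraries lay below all wild-type ones (log2 fold change -1.32 ± 0.13 (SE), limma adjusted p = 8.8e-05). Its paralogue cox4i2, known in mammals as the isoform of hypoxic lung, measured 7.03, 8.62 and 9.08 RPKM in the MZcep290-/- mutants, 6.91, 6.35 and 8.62 RPKM in the morphants and 3.43, 8.12 and 8.84 RPKM in wild type. For cox4i2 the mutant and wild-type libraries overlapped (log2 fold change 0.38 ± 0.32 (SE), limma adjusted p = 0.4). COX5B (2 of 3), the most abundant gene of the complex, measured 339, 348 and 365 RPKM in the MZcep290-/- mutants, 612, 514 and 623 RPKM in the morphants and 733, 914 and 1011 RPKM in wild type. For COX5B (2 of 3) all mutant libraries lay below all wild-type ones (log2 fold change -1.32 ± 0.13 (SE), limma adjusted p = 0.00011). COX5B (1 of 3) measured 2.55, 2.62 and 2.05 RPKM in the MZcep290-/- mutants, 1.36, 2.15 and 3.96 RPKM in the morphants and 4.56, 9.60 and 9.15 RPKM in wild type. This rarer gene was called lower in the mutants (log2 fold change -1.58 ± 0.40 (SE), limma adjusted p = 0.014) and in the morphants (log2 fold change -1.66 ± 0.40 (SE), limma adjusted p = 0.012), on 6 to 29 reads per library. Without mutant replicate 3 its adjusted p in the mutants was 0.053.

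In other pairs of complex IV genes with like names, one gene was lower by adjusted p and the other was not. cox7a3 measured 57.2, 61.3 and 67.1 RPKM in the MZcep290-/- mutants, 96.5, 106 and 124 RPKM in the morphants and 131, 162 and 201 RPKM in wild type. For cox7a3 all mutant libraries lay below all wild-type ones (log2 fold change -1.39 ± 0.16 (SE), limma adjusted p = 0.00022). The names table now calls it COX7A2L, a factor of supercomplexes in mammals. cox7a2a measured 77.1, 75.0 and 77.8 RPKM in the MZcep290-/- mutants, 56.6, 79.6 and 66.0 RPKM in the morphants and 47.5, 64.9 and 49.2 RPKM in wild type. For cox7a2a all mutant libraries lay above all wild-type ones, at under 2-fold (log2 fold change 0.52 ± 0.15 (SE), limma adjusted p = 0.022). cox6b1, which faces the intermembrane space, measured 50.9, 49.4 and 48.6 RPKM in the MZcep290-/- mutants, 55.4, 48.1 and 49.3 RPKM in the morphants and 68.7, 104 and 105 RPKM in wild type. It was below wild type in both groups, with overlap between mutants and morphants (log2 fold change -0.88 ± 0.15 (SE), limma adjusted p = 0.0024 and log2 fold change -0.84 ± 0.15 (SE), limma adjusted p = 0.0032), under 2-fold. cox6b2 measured 93.8, 92.3 and 93.7 RPKM in the MZcep290-/- mutants, 89.2, 91.9 and 95.3 RPKM in the morphants and 75.7, 91.6 and 113 RPKM in wild type. For cox6b2 the mutant and wild-type libraries overlapped (log2 fold change 0.02 ± 0.13 (SE), limma adjusted p = 0.93).

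cox5ab, the more abundant gene for subunit 5A, measured 141, 143 and 145 RPKM in the mutants, against 179, 226 and 304 RPKM in wild type (log2 fold change -0.68 ± 0.16 (SE), limma adjusted p = 0.011), a direction that turned round under library read totals. The fitted changes of the rarer cox5aa row (ENSDARG00000017906), cox6a2 and cox8b lay between -0.55 and -0.26 with overlapping libraries. cox5b2, a rarer gene for subunit 5B, gave -0.21 ± 0.20 in the mutants and -0.78 ± 0.20 in the morphants. cox7c was at the threshold (log2 fold change -1.005 ± 0.14 (SE), limma adjusted p = 0.00058) and fell under 2-fold without mutant replicate 2, wild-type replicate 2 or wild-type replicate 3 (-0.97, -0.998 and -0.90). cox7a1 had the highest fitted change of the set and no call (log2 fold change 2.06 ± 1.05 (SE), limma adjusted p = 0.16), with 0, 0 and 10 reads in wild type.

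Complex V held the most abundant subunit genes and had the lowest median change of the 5 complexes in the mutants. Its catalytic F1 head is made of alpha, beta, gamma, delta and epsilon subunits. ATP5B, the beta subunit with the catalytic sites, measured 640.3, 669 and 665 RPKM in the MZcep290-/- mutants, 1068, 842 and 1165 RPKM in the morphants and 1391, 1558 and 1732 RPKM in wild type. For ATP5B all mutant libraries lay below all wild-type ones (log2 fold change -1.24 ± 0.14 (SE), limma adjusted p = 0.00021). That call was lost under library read totals and under cyclic loess normalization. The smallest change of ATP5B among the alternatives was -0.02, and its limma adjusted p reached 0.77. atp5a1, the alpha subunit that alternates with it in the ring, measured 492, 504 and 502 RPKM in the MZcep290-/- mutants, 984, 747 and 1068 RPKM in the morphants and 1394, 1569 and 1742 RPKM in wild type. For atp5a1 all mutant libraries lay below all wild-type ones (log2 fold change -1.65 ± 0.14 (SE), limma adjusted p = 6.1e-05). The ratio of atp5a1 to ATP5B was 0.753 to 0.769 in the mutants, 0.887 to 0.921 in the morphants and 1.00 to 1.01 in wild type.

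The central stalk of F1 was uneven too. atp5d, the delta subunit, measured 141, 150.1 and 151 RPKM in the MZcep290-/- mutants, 261, 212 and 291 RPKM in the morphants and 402, 479 and 495 RPKM in wild type. For atp5d all mutant libraries lay below all wild-type ones (log2 fold change -1.63 ± 0.13 (SE), limma adjusted p = 3.8e-05). atp5c1, the gamma shaft, measured 227, 252 and 245 RPKM in the MZcep290-/- mutants, 324, 291 and 386 RPKM in the morphants and 339, 381 and 508 RPKM in wild type. For atp5c1 all mutant libraries lay below all wild-type ones, at under 2-fold (log2 fold change -0.74 ± 0.16 (SE), limma adjusted p = 0.0059). Under cyclic loess normalization it lay above wild type. atp5e, the epsilon subunit, measured 44.9, 42.0 and 43.3 RPKM in the MZcep290-/- mutants, 47.5, 43.6 and 38.9 RPKM in the morphants and 35.0, 61.5 and 59.4 RPKM in wild type. For atp5e the mutant and wild-type libraries overlapped (log2 fold change -0.21 ± 0.19 (SE), limma adjusted p = 0.42). The ratio of atp5d to atp5e was 3.15, 3.58 and 3.48 in the mutants, 5.48, 4.85 and 7.47 in the morphants and 11.5, 7.80 and 8.34 in wild type.

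The c ring, which turns in the membrane, is encoded by 3 genes. atp5g1 measured 309, 311 and 307 RPKM in the MZcep290-/- mutants, 499.5, 435 and 509.8 RPKM in the morphants and 678, 779 and 964 RPKM in wild type. For atp5g1 all mutant libraries lay below all wild-type ones (log2 fold change -1.37 ± 0.13 (SE), limma adjusted p = 8.8e-05). atp5g3a measured 101, 102 and 99.8 RPKM in the MZcep290-/- mutants, 118, 113 and 123 RPKM in the morphants and 158, 185 and 188 RPKM in wild type. For atp5g3a all mutant libraries lay below all wild-type ones, at under 2-fold (log2 fold change -0.81 ± 0.09 (SE), limma adjusted p = 0.00015). atp5g3b measured 347, 358 and 364 RPKM in the MZcep290-/- mutants, 476, 429.5 and 546 RPKM in the morphants and 469, 542 and 595 RPKM in wild type. For atp5g3b all mutant libraries lay below all wild-type ones, at under 2-fold (log2 fold change -0.58 ± 0.12 (SE), limma adjusted p = 0.0048). It lay above wild type under library read totals and under cyclic loess normalization. The ratio of atp5g1 to atp5g3b was 0.890, 0.869 and 0.844 in the mutants, 1.05, 1.01 and 0.934 in the morphants and 1.44, 1.44 and 1.62 in wild type. Since c-ring genes encode near-identical mature proteins, and counting options for shared reads are not stated, reads could be split between them.

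In the peripheral stalk, which holds F1 still, 4 of 7 genes were called lower in the mutants. atp5f1, its subunit b, measured 104, 102 and 103 RPKM in the MZcep290-/- mutants, 207, 174 and 221 RPKM in the morphants and 246, 325 and 392 RPKM in wild type. For atp5f1 all mutant libraries lay below all wild-type ones (log2 fold change -1.61 ± 0.16 (SE), limma adjusted p = 0.00011). atp5o, the subunit that joins the stalk to F1, measured 171, 188 and 186 RPKM in the mutants, against 306, 348 and 425 RPKM in wild type. For atp5o all mutant libraries lay below all wild-type ones, at under 2-fold (log2 fold change -0.98 ± 0.13 (SE), limma adjusted p = 0.00045). atp5h, subunit d, measured 219, 213 and 233 RPKM in the mutants, against 237, 307 and 353 RPKM in wild type. For atp5h all mutant libraries lay below all wild-type ones, at under 2-fold (log2 fold change -0.41 ± 0.15 (SE), limma adjusted p = 0.055). atp5j and ATP5J (2 of 4), genes for subunit F6, were also called lower in the mutants (-1.21 ± 0.13 and -1.05 ± 0.23), the second only with wild-type replicate 2 included (-0.76 without it). ATP5J (3 of 4) was called lower in both groups (-2.63 ± 0.76 with limma adjusted p = 0.024 in the mutants and -3.92 ± 0.76 with adjusted p = 0.0041 in the morphants), from 6, 9 and 17 reads in the mutants, 0, 8 and 0 reads in the morphants and 7, 24 and 21 reads in wild type. The gene lay under 1 RPKM in every mutant and morphant library. It passed the filter only through wild type, at 1.18 to 4.04 RPKM, so a lower call was favoured from the start. Its call in the mutants was lost without mutant replicate 1 or 2 or wild-type replicate 2 or 3, with adjusted p from 0.056 to 0.088.

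The small membrane subunits lay on both sides of wild type. atp5ib, one of the pair of genes for subunit e, measured 127, 123 and 132 RPKM in the MZcep290-/- mutants, 103, 126 and 115 RPKM in the morphants and 75.4, 83.4 and 78.4 RPKM in wild type. It was above wild type in every library of both groups at under 2-fold (log2 fold change 0.69 ± 0.09 (SE), limma adjusted p = 0.00047 and log2 fold change 0.54 ± 0.09 (SE), limma adjusted p = 0.0021). atp5ia gave 0.58 ± 0.16 in the mutants with adjusted p = 0.019 in limma. atp5l, subunit g, which pairs with subunit e in the membrane, measured 285, 289.9 and 289.7 RPKM in the MZcep290-/- mutants, 400.3, 355 and 414 RPKM in the morphants and 525, 574 and 683 RPKM in wild type. For atp5l all mutant libraries lay below all wild-type ones (log2 fold change -1.03 ± 0.11 (SE), limma adjusted p = 0.00016). Without wild-type replicate 3 it was -0.93, under 2-fold. The ratio of atp5ib to atp5l was 0.445, 0.423 and 0.456 in the mutants, 0.258, 0.355 and 0.279 in the morphants and 0.143, 0.145 and 0.115 in wild type. ATP5J2 had the lowest mean of complex V, 0.666 to 1.57 RPKM in the mutants, 0.150 to 0.944 RPKM in the morphants and 0.334 to 1.12 RPKM in wild type. The set also holds atp5s and ATP5SL, whose current names, DMAC2L and dmac2, are not those of subunits. atp5s was called lower in the mutants (-1.38 ± 0.36), though not without mutant replicate 1 (adjusted p = 0.057 in limma).

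**Figure D5:**
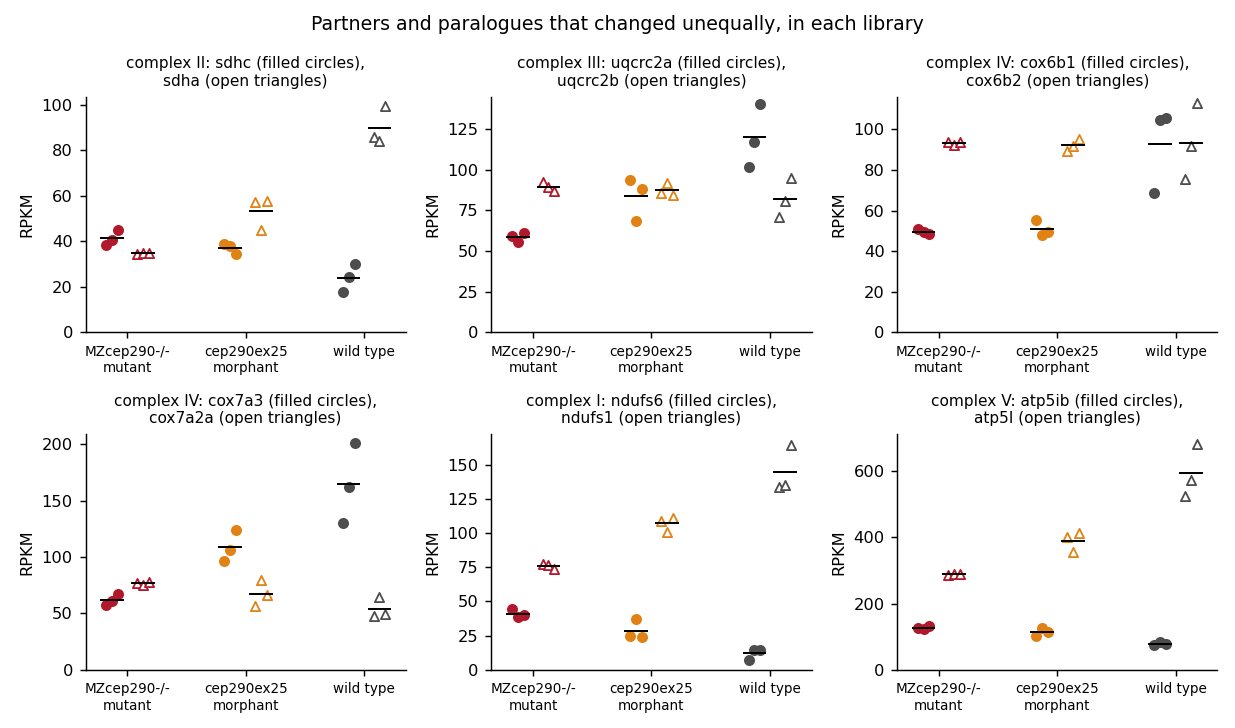
RPKM in each library (points, means as bars) of 6 pairs of genes, chosen after their values were seen, in mutants, morphants and wild type. In each pair the 2 genes changed unequally; sdhc exceeded sdha in the mutants and lay below it in wild type, and uqcrc2a lay below uqcrc2b in the mutants and above it in wild type.

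These ratios within a library do not depend on the scaling of the libraries, but they show unequal change only. Some pairs join genes of unlike level, such as atp5d and atp5e with means of 287 and 46.2 RPKM. Others are alike, such as uqcrc2a and uqcrc2b with 87.2 and 86.4 RPKM. Other genes changed with level in the mutants, with medians of 0.21 between 8 and 32 RPKM and -1.50 at 512 RPKM or more. The part of level in the ratios was not tested. Ratios between partners were chosen after the values were seen and are given as descriptions. The paralogue pairs whose ratio in the mutants overlapped wild type were cox5ab to cox5aa and cox6a1 to cox6a2.

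In the morphants the called genes were few and 3 of the 5 lower ones lay under 8 RPKM, namely sdhda, ATP5J (3 of 4) and COX5B (1 of 3). Of these, sdhda and ATP5J (3 of 4) passed the filter only through wild type. Among other genes under 8 RPKM 19.5% were called lower there. The 5 subunit genes at 512 RPKM or more had a median log2 fold change of -0.67, beside -0.68 for the 160 other genes of that level. Between 128 and 512 RPKM the medians were -0.54 for 23 subunit genes and -0.17 for 261 other genes, and between 32 and 128 RPKM they were -0.15 and 0.20. Without the 2-fold minimum 34 subunit genes were lower in the morphants and 5 higher, against 18.5% and 16.6% of all genes. Leaving out wild-type replicate 1, whose subunit values were the lowest of its group, gave 10 lower and 0 higher subunit genes. Of all 21982 genes 3163 (14.4%) were then called lower and 1797 higher. Library read totals gave a median of -0.08 over the subunits and 0.22 over all genes.

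Mutants and morphants were also compared directly. Among the subunit genes 3 were called lower in the mutants than in the morphants and 1 higher, which is 3.26% and 1.09%, against 2.4% and 3.48% of all genes. The median log2 fold change was -0.43 over the subunit genes and 0.14 over all genes. By level, the medians of subunit and other genes were -0.45 and -0.14 between 8 and 32 RPKM. They were -0.31 and -0.29 between 32 and 128 RPKM, -0.61 and -0.46 between 128 and 512 RPKM, and -0.65 and -0.88 above. Called lower from 32 RPKM up were 0, 4.35 and 0% of subunit genes by bin, against 7.26, 11.1 and 34.4% of other genes. Between 8 and 32 RPKM these shares were 22.2 and 4.06%. The lower genes were ndufa6 (log2 fold change -1.29 ± 0.13 (SE), limma adjusted p = 0.00062), the ndufv3 row ENSDARG00000090389 (log2 fold change -1.14 ± 0.23 (SE), limma adjusted p = 0.012) and the more abundant uqcrfs1 row (log2 fold change -1.04 ± 0.22 (SE), limma adjusted p = 0.014). ndufa4 was higher in the mutants (log2 fold change 1.02 ± 0.13 (SE), limma adjusted p = 0.0015). Without the 2-fold minimum 37 were lower and 1 higher, against 8.33% and 5.28% of all genes. Of the 75 subunit genes of 8 RPKM or more on average, 55 had their lowest mean in the mutants and their highest in wild type. How many other genes of that level did so was not counted. Other genes at 512 RPKM or more had medians of -1.50 in the mutants and -0.68 in the morphants, each against wild type. Without morphant replicate 2, whose values were low, 10 subunit genes were called lower in the mutants than in the morphants, beside 2.85% of all genes. Under library read totals the subunit median turned to 0.01, with 0 genes lower. Under cyclic loess normalization it was -0.10, with 0 genes lower. The median of all genes was 0.55 and -0.01 there.

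The subunits that mitochondria encode themselves were lower as well, with a larger median change than their nuclear partners. Of 13 such genes 12 were called lower in the mutants and 2 in the morphants, beside 12.1% and 14.9% of all genes. The count in the morphants thus lay near the share of all genes. Their median log2 fold changes were -1.93 and -0.76. Most of the 13 lay above 512 RPKM, where genes other than the nuclear subunits, these included, had medians of -1.50 and -0.68. Their reads made up 3.11 to 3.26% of the reads in the mutants, 4.63 to 5.55% in the morphants and 7.45 to 7.62% in wild type. mt-co3, a core subunit of complex IV, measured 4149, 4358 and 4436 RPKM in the MZcep290-/- mutants, 13928, 10617 and 15977 RPKM in the morphants and 25105, 28730.0 and 30646 RPKM in wild type (log2 fold change -2.70 ± 0.22 (SE) in the mutants, limma adjusted p = 4.8e-05). mt-atp6, the proton channel subunit of complex V, measured 5446, 6226 and 5831 RPKM in the MZcep290-/- mutants, 11793, 9189 and 12716 RPKM in the morphants and 22209, 26603 and 26567 RPKM in wild type (-2.10 ± 0.22, limma adjusted p = 0.00014). mt-co2, a core subunit that lies with mt-co3 in complex IV, measured 4132, 4228 and 4241 RPKM in the MZcep290-/- mutants, 4140.1, 4102 and 5024 RPKM in the morphants and 3770.0, 4040.5 and 4198 RPKM in wild type (0.07 ± 0.15, limma adjusted p = 0.74). mt-co2 overlapped wild type, while mt-co1 and mt-co3 lay below wild type in every mutant and morphant library.

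Other genes of oxidative metabolism were read from lists, beside 12.1% lower and 10.4% higher of all genes in the mutants. Of 24 genes in a list picked by symbol, 10 were called lower and 4 higher in the mutants, with a median of -0.84. This list covers the citric acid cycle, pyruvate dehydrogenase and pyruvate carboxylase, and not every row is a cycle enzyme. It also holds dld, in zebrafish the symbol of the Notch ligand deltaD, which gave 0.95 in the mutants and was not called. In the morphants 0 were lower and 2 higher, beside 14.9% and 7.45% of all genes. Genes lower in the mutants included fh, fumarase, at 25.3 RPKM in the mutants and 72.0 RPKM in wild type. They also included pdhb and pdhx of pyruvate dehydrogenase. Genes higher in the mutants included pcxb, a pyruvate carboxylase, and idh3a, a subunit of isocitrate dehydrogenase. idh3a measured 47.2 RPKM in the mutants and 18.2 RPKM in wild type. A list of mitochondrial carriers, VDAC channels, the ATP synthase inhibitor and USMG5 had 6 of 17 genes lower in the mutants, with a median of -0.92. The assembly factors of the complexes gave 4 lower and 4 higher genes of 43 in the mutants, with a median of 0.05. Mitochondrial ribosomal proteins gave 6 lower and 7 higher of 70 with a median of -0.04. The shares of both lists lay near those of all genes. Electron carriers gave 1 lower and 0 higher of 18 with a median of 0.09. Import translocases gave 0 lower and 3 higher of 21 with a median of 0.24. Medians well below that of all genes were thus found for the subunits, the cycle and pyruvate list and the carrier and channel list. Those of the lists for assembly, electron carriers, mitochondrial translation and import lay near or above it. These lists differ in level. In the mutants non-subunit genes had medians of 0.21 between 8 and 32 RPKM and -1.50 at 512 RPKM or more. The lists were not compared with genes of their own level. Regulators of mitochondrial genes gave 0 lower and 1 higher of 20 in the mutants.

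Markers of several tissues were also lower in the mutants, beside 12.1% lower and 10.4% higher of all genes. In the morphants these shares of all genes were 14.9% and 7.45%. The markers differ in level and were not compared with genes of their own level. Among genes other than the subunits at 512 RPKM or more, 75.0% were called lower in the mutants. Of 18 skeletal muscle markers 11 were called lower in the mutants and 1 in the morphants, and their summed level was 40129 to 42182 RPKM in the mutants, 61489 to 82187 RPKM in the morphants and 97186 to 127110 RPKM in wild type, with no marker at 0. Heart markers (3 of 7 lower and 1 higher in the mutants) summed to 60.6 to 65.3 RPKM in the mutants, 89.8 to 113 RPKM in the morphants and 109 to 121 RPKM in wild type. Photoreceptor markers (8 of 9 tested lower in both groups) summed to 55.7 to 60.3 RPKM in the mutants, 41.6 to 50.5 RPKM in the morphants and 427 to 523 RPKM in wild type, with 2 of 12 rows at 0 in the mutants and in wild type and 3 in the morphants. Red blood cell markers (5 of 7 lower in the mutants) summed to 4466 to 4676 RPKM in the mutants, 5876 to 8379 RPKM in the morphants and 12098 to 17147 RPKM in wild type. Neuron markers went up, with 4 of 5 higher in the mutants, and summed to 356 to 371 RPKM in the mutants, 159.5 to 208 RPKM in the morphants and 99.0 to 113 RPKM in wild type. Liver markers (2 of 5 lower in the mutants) had a median log2 fold change of -0.83 and pronephros markers (0 of 3 called) one of 0.02. The part of these markers in the result for the subunit genes was not tested.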

How the data were processed

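RNA of 9 libraries, 3 per group, was read from 1 table of RPKM values per gene and library. Per the study's methods, poly(A) RNA was made into strand-specific libraries with the NEBNext Ultra Directional kit, multiplexed over 2 lanes, sequenced as 50-bp single-end reads, aligned with STAR to the Zv9 build and counted with HTSeq, and edgeR was used by the authors; versions are not given in the sources used here. The deposited RPKM values were turned back into whole reads with the library sizes they imply (tolerance 0.01 read), and these reads gave the depths and read shares. A level that 3 reads give is the floor of detection. Values after ± are limma standard errors, which rest on the spread between libraries.

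Members were all rows whose lower-case name began with nduf a, b, c, s or v and a digit, sdh a to d, uqcr, cyc1, cox 4 to 8 or atp5. Members, gene lists and alternatives were chosen with earlier results of these data known. Of the 94 members 82 had their identifier in a table of current gene names. limma 3.58.1 (R 4.3.3) with an intensity trend was fitted to log2(RPKM + 0.1) of the 21982 genes that reached 0.5 RPKM in 3 libraries or more, over all 9 libraries with a mean per group. p-values were adjusted by Benjamini and Hochberg over all genes tested, and calls need an adjusted p under 0.05 and a change of over 2-fold. The added 0.1 shrinks fold changes of low genes, while libraries at 0 can enlarge them. For cox7a1, with 0, 0 and 10 reads in wild type, the fitted change in the mutants was 2.06. Its means were 1.05 RPKM in the mutants and 0.587 RPKM in wild type. The fit was also run on simulated reads with equal numbers of genes raised and lowered and the same spread in all groups. That run cannot test the choice of scaling or a spread that differs between groups. Named genes were members with the largest falls or rises, the highest and lowest means of each complex, core subunits, paralogues and called members; ndufs3, ndufs8b, ndufb10, ndufa2, NDUFA3, ndufa11, ndufb7, ndufs4, NDUFB2, sdhc, uqcrh, cox5b2, atp5e, atp5h, atp5o, atp5ia, atp5ib and ATP5SL were added after their values were seen. Alternatives varied the pseudocount (1 and 0.01), the filter, the scaling, the samples fitted, the block and the library left out. Values of 1 member are not reported here. No sequences or coordinates were used here. Scripts ran in Python 3.11.15 with pandas 2.3.3, numpy 2.4.6, scipy 1.17.1 and matplotlib 3.10.9.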

Additional observations from a re-analysis of the deposited data

Results flagged for a closer look

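The changes of 4 subunit genes relative to wild type differed between mutants and morphants by the direct test. Of the 92 subunit genes 3 were lower (3.26%) and 1 higher (1.09%), against 2.4% and 3.48% of all genes, so the counts lay near or below those shares. The 3 lower calls were lost under library read totals and under cyclic loess normalization. On the log2 scale the mutants minus the morphants came to -1.29 ± 0.13 (SE) for ndufa6, -1.14 ± 0.23 for the ndufv3 row ENSDARG00000090389, -1.04 ± 0.22 for the more abundant uqcrfs1 row and 1.02 ± 0.13 for ndufa4, with limma adjusted p = 0.00062, 0.012, 0.014 and 0.0015. The difference for ndufa4 was 0.96 without morphant replicate 3 and just under 2-fold without mutant replicate 2. The ndufv3 row came to -0.91 without mutant replicate 3, and its adjusted p was 0.051 without morphant replicate 1. The uqcrfs1 row came to -0.78 without morphant replicate 3, and its adjusted p lay between 0.051 and 0.062 without any 1 of the mutant replicates. With 3 libraries per group, no test for a single library standing apart was made.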

How the results depend on the processing

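Beside library read totals and cyclic loess normalization, no alternative moved a median over the subunit genes by more than the spread between replicates. For mutants against wild type, library read totals gave 8 higher and 7 lower genes with a median of -0.083, cyclic loess 3 and 16 with -0.41, and an adjusted p alone 6 and 55. Leaving out 1 library gave 1 to 3 higher genes, with 3 without wild-type replicate 3, and 30 to 42 lower. For morphants against wild type, library read totals moved the median to -0.082, cyclic loess gave 2 higher genes, a minimum mean of 2 RPKM gave 3 lower, and an adjusted p alone gave 5 higher and 34 lower. Leaving out 1 library gave 0 to 2 higher, with 0 without wild-type replicate 1 and 2 without wild-type replicate 3, and 5 to 10 lower, with 10 without wild-type replicate 1. Without that library 14.4% of all genes were called lower. For mutants against morphants, a pseudocount of 1 gave 0 higher, library read totals 3 higher and 0 lower with a median of 0.0081, cyclic loess 0 lower with -0.10, and an adjusted p alone 37 lower. Leaving out 1 library gave 0 to 1 higher, with 0 without mutant replicate 2 or morphant replicate 3, and 1 to 10 lower, with 1 without mutant replicate 3 and 10 without morphant replicate 2. Of all genes 1.85% and 2.85% were called lower in the last 2 settings. The cause of these differences was not tested.

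Of 37 calls in the mutants 6 were kept under all 19 alternatives, 27 were lost under 1 to 3 and 4 under more. In the morphants 2 of 6 were kept, those of NDUFA4L2 (1 of 2) and COX5B (1 of 3), and between mutants and morphants 0 of 4. Replicate numbers were not taken to pair the samples. Same-numbered libraries deviated together with correlations from -0.04 to 0.01, and other pairs from different groups with -0.02 to 0.04. These correlations run over all genes tested, many at a low level, so they cannot exclude a shared clutch or batch. With the replicate number as a block, calls were 1 higher and 36 lower in the mutants, 1 and 5 in the morphants and 1 and 3 between them. edgeR on counts was not run, as the table holds RPKM. limma voom on the recovered reads, chosen after seeing the data, gave 1 and 37, 1 and 7, and 1 and 2. Of all genes voom called 15.6, 16.3 and 3.13% lower in these comparisons. Wild-type libraries were the shallowest, so 3 reads on a gene of 1 kilobase stood for 0.107 to 0.123 RPKM in the mutants, 0.174 to 0.371 RPKM in the morphants and 0.530 to 0.618 RPKM in wild type, and genes near these levels are measured poorly there.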
